A study of Mus musculus with 48 samples.

Results

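The comparison set the pituitary against the hypothalamus of lactating mice kept at normal temperature. It used the control libraries of these tissues, 8 of pituitary and 8 of hypothalamus, out of 48 libraries in the series. Genes entered where the mean FPKM (fragments per kilobase of exon, scaled to library size by the authors) was at least 1 in either group, which left 16094 of 58913 features. Of these, 14904 carried a gene symbol and 1159 were loci added by the authors, which were tested but are not named. The filter was met in both tissues by 11923 genes, in pituitary alone by 2128 and in hypothalamus alone by 2043. Nearest to the filter, Tlcd2 entered with a mean of 1.001 FPKM in pituitary and 0.216 in hypothalamus, and Gm17518 was left out with 0.999939 and 0.335.

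Both groups were ICR dams, an outbred laboratory stock, of 10 weeks of age and at day 13 of lactation, housed at 25 °C and 55% relative humidity, with no transgene or drug named in the labels. The labels call the 8 libraries of a tissue biological replicates. They state neither which lobes of the pituitary were taken nor how the hypothalamus was dissected. The other groups of the study were dams exposed to 36 °C and, under both temperatures, the mammary gland. The heated pituitary and hypothalamus libraries, again 8 a side, were used here only to repeat the comparison in libraries that the control fit had not seen.

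The hypothalamus is a region of the ventral forebrain whose neurons secrete releasing and inhibiting hormones into the portal vessels of the pituitary, and send vasopressin and oxytocin down axons to its posterior lobe. The anterior pituitary is an epithelial gland of hormone-secreting cells (corticotropes, gonadotropes, thyrotropes, lactotropes and somatotropes). The intermediate lobe of the mouse consists of melanotropes, which make proopiomelanocortin, and the posterior lobe of axon endings with glia called pituicytes. During lactation, prolactin of the anterior lobe sustains milk synthesis and oxytocin of the posterior lobe causes milk let-down.

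Differences are given on the log2(FPKM + 1) scale, pituitary minus hypothalamus, with the standard error. They understate the contrast of genes near 0 in 1 tissue. Adjusted p values come from limma with Benjamini-Hochberg adjustment, and a gene was called at an adjusted p under 0.05 with a log2 difference of at least 1 in size. FPKM levels are per kilobase, so levels of different genes are compared on that scale. Fragments on annotated genes, recovered from the steps of the values, were 12629300 to 16383600 per pituitary library and 17194600 to 20735200 per hypothalamus library. The FPKM denominators, recovered likewise, were 21632200 to 27328600 fragments in pituitary and 22032100 to 27680500 in hypothalamus. Fragments on annotated genes were thus a smaller part of the denominator in pituitary, and the cause was not tested. For an exon length of 1 kb, a count of 3 fragments equals 0.11 to 0.139 FPKM in pituitary and 0.108 to 0.136 in hypothalamus, a limit that covers counting error only. In both tissues the first principal component divided libraries 1, 2 and 3 from the other 5.

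Control pituitary library 1 lacked the signals of the intermediate and posterior lobes that the other pituitary libraries held. It had 2173 FPKM of Pomc against 14680.3 to 42736 in the other 7, 0.0629 of the melanotrope factor Pax7 and 0 of Avp. Anterior lobe genes were present in it, with 1204 FPKM of Cga and 61.9 of Pou1f1. Some of the values that rest on it are also given without it.

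Most of the transcriptome differed between the tissues. With no minimum size, 12787 of 16094 genes (79.5%) passed the adjusted p threshold, so a minimum log2 difference of 1 was part of the call. Under that rule 1993 genes (12.4%) were higher in pituitary and 2695 (16.7%) in hypothalamus, with a median log2 difference over all tested genes of −0.01. Without pituitary library 1 the counts were 2005 (12.5%) and 2673 (16.6%). Libraries 1 to 3 of both tissues alone gave 2056 and 2782, and libraries 4 to 8 alone gave 2000 and 2645. The wider contrasts lay more often on the hypothalamic side: 306 called genes differed by at least 3 log2 units in favour of hypothalamus and 113 in favour of pituitary, and 34 against 15 by at least 5. At a mean of at least 5 FPKM in one tissue and under 0.1 in the other stood 44 pituitary genes, Pou1f1, Ghrhr, Prl, Gh, Gnrhr and Esrp1 among them, and 83 hypothalamus genes, with Pmch, Camkv, Itih3, Magel2, Npy2r, Gpr17 and Scn1a among them.

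**Figure D1:**
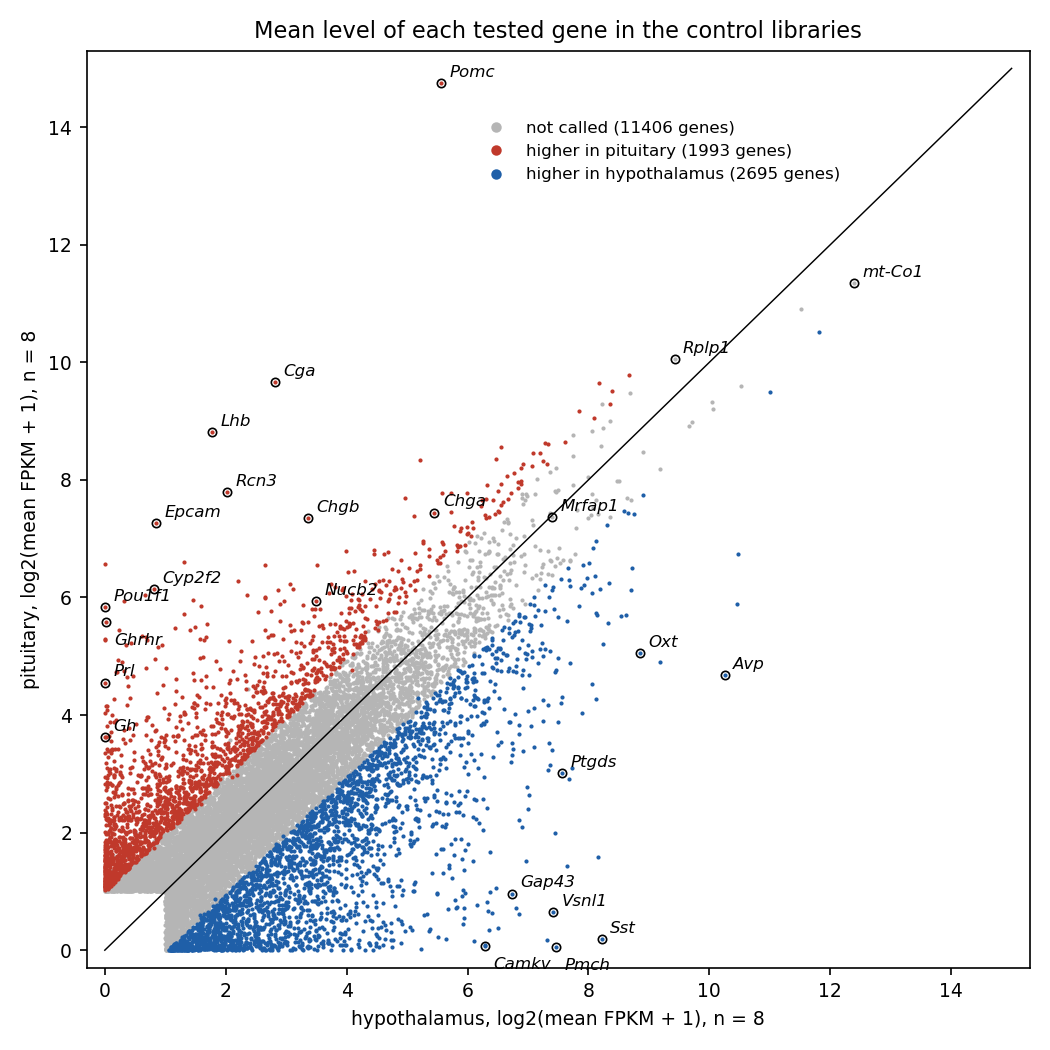
Mean level of each tested gene, log2(mean FPKM + 1), in hypothalamus (x axis) and pituitary (y axis), 8 control libraries each, with named genes circled and the line of equal levels drawn. Red points are the 1993 genes called higher in pituitary, blue points the 2695 called higher in hypothalamus; Pomc stands highest on the pituitary axis.

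Pomc, the precursor of ACTH and of melanocyte-stimulating hormone, was the most abundant gene of the pituitary and had the largest difference of any named gene. Its 8 pituitary libraries ran from 2173 to 42736 FPKM (median 28339), and its hypothalamus libraries from 36.9 to 56.5 FPKM (median 46.1). The groups did not overlap, although hypothalamus, whose arcuate neurons use the same precursor, was far from 0. The mean was 600.2 times higher in pituitary (log2 difference 8.89 ± 0.46, adjusted p = 5.69e-12, and 9.37 without library 1). In bulk tissue, more cells of a type and more RNA per cell cannot be told apart, here and below.

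Cga, the alpha subunit shared by LH, FSH and TSH, ranked as gene 7 by mean level in pituitary, with 663 to 1204 FPKM (median 751) against 0.962 to 14.9 FPKM (median 4.48) in hypothalamus (log2 difference 7.19 ± 0.34, adjusted p = 1.74e-12). Lhb, the subunit that makes LH specific, ran from 258 to 605 FPKM (median 458) against 1.46 to 6.02 FPKM (median 1.99) (log2 difference 7.13 ± 0.20, adjusted p = 9.35e-16). Neither gene's groups overlapped. On Cga, 32% of exon bases lie opposite an exon of another gene, and the sources used here do not state whether counting used strand. The remaining glycoprotein hormone subunits were less abundant. Fshb, of FSH, ran from 20.1 to 62.1 FPKM (median 42.2) in pituitary and from 0 to 0.568 FPKM (median 0.105) in hypothalamus (log2 difference 5.19 ± 0.17, adjusted p = 1.23e-14), and Tshb, of TSH, from 21.1 to 71.8 FPKM (median 30.4) and 0.535 to 1.99 FPKM (median 0.796) (log2 difference 4.21 ± 0.21, adjusted p = 2.38e-12).

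Prl and Gh, the prolactin and growth hormone genes, were low in these pituitary libraries. Prl ran from 9.13 to 43.9 FPKM (median 20.5) and ranked as gene 1394 by mean level, and Gh from 2.24 to 22.4 FPKM (median 12.3), as gene 3164. Both were listed at 0 in every hypothalamus library, so the groups did not overlap (adjusted p = 3.46e-12 and 5.55e-09). Their fitted log2 differences, 4.43 and 3.42, depend on the 1 FPKM added before the logarithm. Pou1f1, the factor that drives both hormone genes, and Ghrhr, the receptor of somatotropes, were steady and high in the same libraries, at 41.9 to 67.1 and 31.95 to 61.1 FPKM. In the annotation no exon base of Prl or Gh lies in an exon of another gene, and whether the submitters' handling of reads touched these genes was not tested. The highest Prl value, 43.9, was that of library 1, and the highest Gh value, 22.4, that of library 8.

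In the hypothalamus libraries Cga reached 14.9 FPKM in library 2 and 12.4 in library 5, and had a lowest value of 0.962. Other pituitary genes were seen there at low level, with Lhb up to 6.02, Tshb up to 1.99, the pituitary factor Pitx1 up to 2.22 and Cyp2f2 up to 2.15. Pou1f1 was at most 0.0117 and Prl and Gh were listed at 0. Whether tissue of the pituitary was carried into these libraries was not tested. All 7 listed hormone genes were called higher in pituitary, with a median log2 difference of 5.19, also without library 1 and in the heated libraries.

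**Figure D2:**
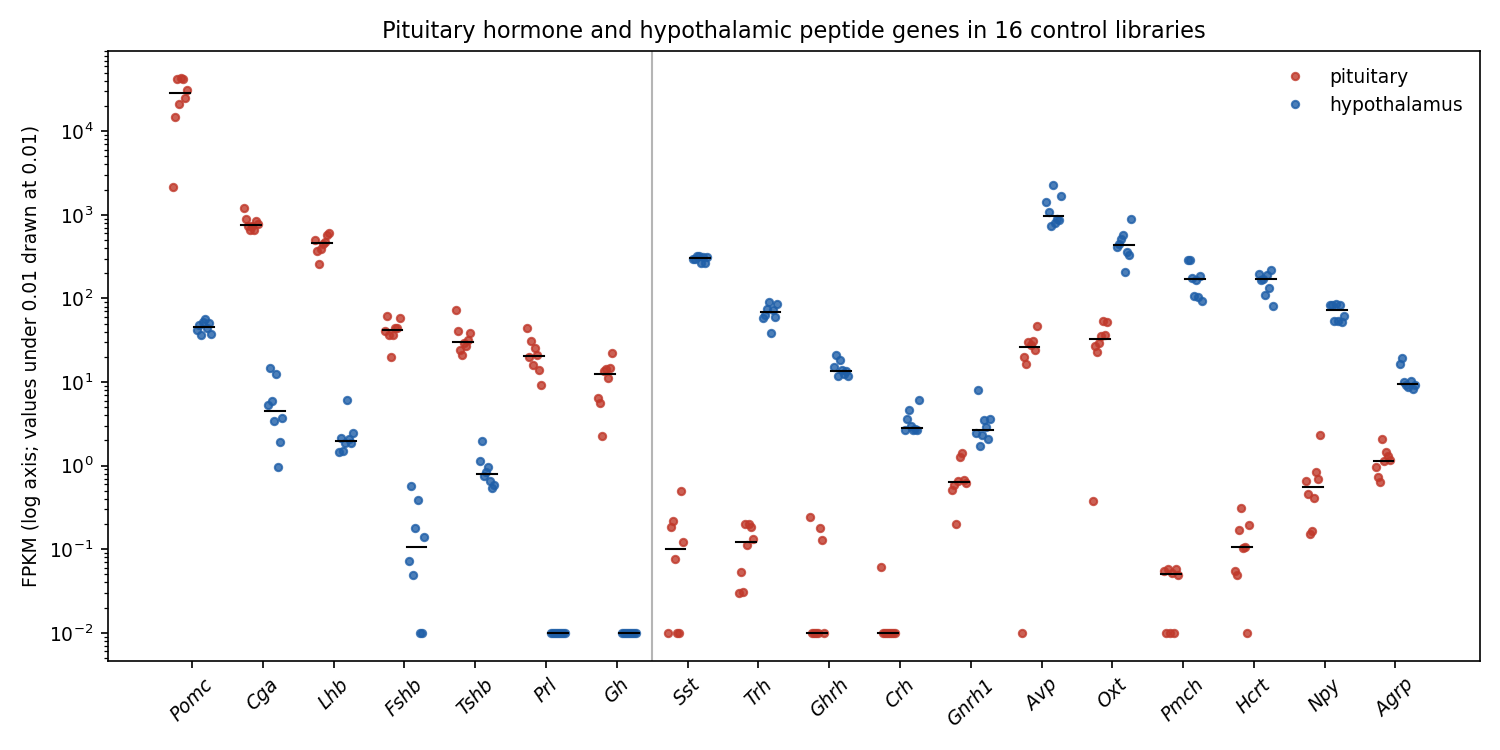
FPKM (log axis) of 7 pituitary hormone genes, left of the grey line, and 11 hypothalamic peptide genes, right of it, in each of the 16 control libraries, with black bars at the medians and values under 0.01 drawn at 0.01. Red points are pituitary and blue points hypothalamus; the single low red point of Pomc, Avp and Oxt is pituitary library 1.

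The promoters of these hormone genes are shown because the genes share a tissue and differ in level. RefSeq windows on GRCm38.p6 were held for 6 of the 7 (Pomc, Prl, Cga, Lhb, Fshb and Tshb), and the 150 bases before the start site are printed 5′ to 3′. The submitters' notes name mm9, and the files hold no coordinates, so positions are those of RefSeq. Capitals mark matches, on either strand, to 6 short motifs: the TATA box (TATAAA), a core bound by POU1F1 (ATGNATA), a core bound by PITX factors (TAATCC), a core bound by steroidogenic factor 1 (CAAGGTCA), the cyclic AMP response element (TGACGTCA) and a part of the site of the neuronal repressor REST (TTCAGCACC). A match describes letters and no binding.
Pomc (chr12:3954795-3954944, + strand): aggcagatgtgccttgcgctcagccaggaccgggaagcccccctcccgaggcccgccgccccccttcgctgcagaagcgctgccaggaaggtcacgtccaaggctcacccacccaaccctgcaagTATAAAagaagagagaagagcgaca
Prl (chr13:27057420-27057569, + strand): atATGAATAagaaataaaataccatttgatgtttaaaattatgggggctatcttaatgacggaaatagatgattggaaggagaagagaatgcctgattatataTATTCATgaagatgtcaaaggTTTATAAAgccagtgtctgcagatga
Cga (chr4:34893629-34893778, + strand): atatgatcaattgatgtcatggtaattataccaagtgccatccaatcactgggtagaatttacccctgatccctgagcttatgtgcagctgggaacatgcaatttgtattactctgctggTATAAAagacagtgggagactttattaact
Lhb (chr7:45420796-45420945, + strand): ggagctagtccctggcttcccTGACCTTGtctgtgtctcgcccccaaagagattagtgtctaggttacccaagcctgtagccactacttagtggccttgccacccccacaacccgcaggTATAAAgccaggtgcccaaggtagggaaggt
Fshb (chr2:107059652-107059801, - strand): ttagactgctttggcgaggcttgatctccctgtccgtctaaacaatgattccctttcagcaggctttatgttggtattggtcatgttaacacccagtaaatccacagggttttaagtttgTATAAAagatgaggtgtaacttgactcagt
Tshb (chr3:102782715-102782864, - strand): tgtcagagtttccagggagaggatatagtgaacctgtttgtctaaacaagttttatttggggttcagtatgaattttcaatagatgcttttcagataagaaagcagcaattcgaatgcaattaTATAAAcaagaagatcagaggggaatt

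All 6 of these promoters held TATAAA on the strand of the gene with its first base 24 to 31 bases before the start, while 2.41% of all 27025 genes with a window held it 20 to 40 bases before theirs. In the 250 bases before the start, TATAAA on either strand occurred in 14.3% of genes. In Prl the capital run near the start joins TATAAA with an overlapping match on the other strand. Prl alone of the 6 held ATGNATA, in 2 copies, a motif found in 9.16% of genes, and Lhb alone held CAAGGTCA, found in 1.51%. None of the 6 windows held TAATCC (7.21% of genes), TGACGTCA (1.77%) or TTCAGCACC (0.348%). Windows were found for 1162 of 1756 symbols called higher in pituitary and 1826 of 2572 called higher in hypothalamus, too few to give shares over the called genes.

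Transcription factors that build the pituitary cell lineages were higher in pituitary. Of 22 listed, 18 passed the filter, 14 were called higher in pituitary and none in hypothalamus, with a median log2 difference of 2.80. Pou1f1, the factor of lactotropes, somatotropes and thyrotropes, ran from 41.9 to 67.1 FPKM (median 57.0) and was at most 0.0117 in hypothalamus (log2 difference 5.83 ± 0.08, adjusted p = 1.08e-19). Pitx1, expressed through the gland from its earliest stage, ran from 74.4 to 118 FPKM (median 101) against 0.754 to 2.22 FPKM (median 1.52) (log2 difference 5.35 ± 0.12, adjusted p = 8.94e-17). Their groups did not overlap, nor did those of Lhx3 (4.801), Neurod4 (3.53) and the gonadotrope factor Foxl2 (2.87).

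Nr5a1, which encodes steroidogenic factor 1 and serves both gonadotropes and the ventromedial hypothalamus, was not called, at 6.27 to 10.6 FPKM (median 8.65) and 2.93 to 7.01 FPKM (median 5.35). Its log2 difference was 0.63 ± 0.14 (adjusted p = 0.00054), and the groups overlapped. Neurod1 (0.43) and Zbtb20 (0.54) were not called either. The immediate early gene Nr4a1, which acts on Pomc in corticotropes, spread from 7.66 to 121 FPKM in pituitary and was called (log2 difference 2.85 ± 0.44, adjusted p = 1.1e-05). Egr1, which drives Lhb in gonadotropes, spread further, from 1.11 to 131 FPKM (median 3.29) in pituitary, its highest value in library 1, against 2.69 to 5.11 FPKM (median 4.25) in hypothalamus. Its log2 difference was 0.53 ± 0.64 (adjusted p = 0.453) and −0.07 without library 1.

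The corticotrope and melanotrope list turned on library 1. Of its 7 genes 4 were called higher in pituitary (Pomc, Oacyl, Tbx19 and Pax7), and without library 1 Pcsk2 was added. Pcsk2, the convertase that cuts the Pomc product into melanocyte-stimulating hormone, was 2.11 FPKM in pituitary library 1 and 18.3 to 48.6 in the others, against 12.9 to 22.5 FPKM (median 16.8) in hypothalamus. Its log2 difference was 0.56 ± 0.43 with all 16 libraries (adjusted p = 0.238) and 1.01 without library 1 (adjusted p = 0.000111). Oacyl, a putative acyltransferase gene, was 0.582 in library 1 and had a median of 64.2, against at most 0.503 in hypothalamus (log2 difference 5.04 ± 0.64, adjusted p = 1.1e-06). Pax7, the selector of melanotropes, had a median of 7.71 in pituitary and 0.102 in hypothalamus (log2 difference 2.63 ± 0.37, adjusted p = 4.08e-06), and its call was lost within libraries 1 to 3 alone. Tbx19, the factor of both Pomc lineages, ran from 2.87 to 17.5 FPKM (median 11.5) and was lowest in library 1.

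Pcsk1, the convertase of corticotropes and neurons, did not follow that pattern: library 1 held the highest of its pituitary values, 27.7 FPKM, and the others 12.1 to 24.9. It was not called (log2 difference 0.81 ± 0.17, adjusted p = 0.000401). Crhr1, the receptor through which corticotropin-releasing hormone acts, overlapped between tissues at 1.52 to 3.38 FPKM (median 2.56) and 2.18 to 4.86 FPKM (median 3.03).

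Genes were also ranked by likeness to Pomc over the 8 control pituitary libraries, as the Pearson correlation of log2(FPKM + 1) among 5946 genes with a mean of at least 5 FPKM. The 5 nearest were Pcsk2 (r = 0.999), Oacyl (0.985), Esm1 (0.983), Pax7 (0.975) and Gpr6 (0.973). Library 1 lies far below the rest for all of them and sets much of these values. Over the other 7 libraries r was 0.999 for Pcsk2, 0.906 for Oacyl, 0.898 for Esm1, 0.821 for Pax7 and 0.917 for Gpr6. Esm1, which encodes endocan of endothelium, had 1.47 FPKM in library 1 and 26.4 to 62.7 in the others. The points share libraries, and the values describe these libraries only.

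**Figure D3:**
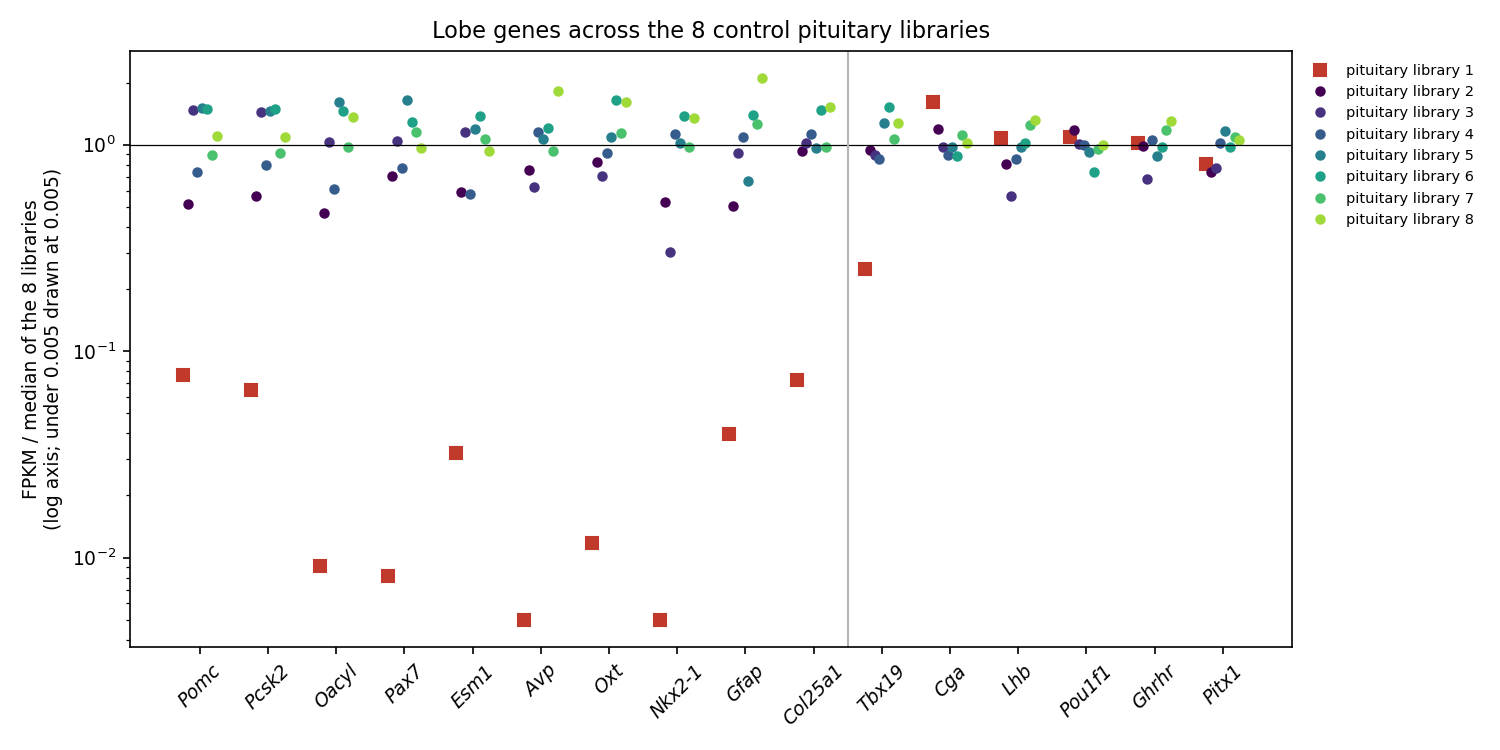
FPKM of each gene divided by its median over the 8 control pituitary libraries (log axis; values under 0.005 drawn at 0.005). The red squares are library 1, which lies far below the median for the 10 genes left of the grey line and near the median for Lhb, Pou1f1, Ghrhr and Pitx1, while Tbx19 is low in it and Cga high.

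Peptide and glial genes of the posterior lobe followed the same division. Avp, the vasopressin gene, was 0 in pituitary library 1 and 16.3 to 47.4 FPKM in the others, and Oxt, the oxytocin gene, was 0.381 and 22.8 to 53.1. Of 6 pituicyte genes, which glia of the posterior lobe share with hypothalamic glia and progenitors, none was called higher in pituitary and 2 were higher in hypothalamus. Over all tested genes these shares were 12.4% and 16.7%. Nkx2-1, a factor of ventral hypothalamus and posterior lobe, ran from 0 to 3.15 FPKM (median 2.29) against 10.6 to 30.6 FPKM (median 23.4) (log2 difference −2.998 ± 0.29, adjusted p = 3.02e-08). Rax, of tanycytes and pituicytes, overlapped between tissues, at 0.0491 to 3.97 FPKM (median 2.19) and 0.91 to 3.27 FPKM (median 2.24), and library 1 again held the lowest value. The summed level of the 6 genes was 3.70 to 19.5 FPKM in pituitary.

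Genes of pituitary stem and folliculostellate cells went both ways: 4 of 9 tested were higher in pituitary and 2 in hypothalamus, where astrocytes and progenitors use some of the same genes. Over all tested genes the shares were 12.4% and 16.7%. Cyp2f2, a cytochrome P450 gene, ran from 40.0 to 133 FPKM (median 62.5) against 0.268 to 2.15 FPKM (median 0.583) (log2 difference 5.33 ± 0.21, adjusted p = 1.21e-13). Aldh1a2, which makes retinoic acid, had a log2 difference of 2.03 ± 0.22 (adjusted p = 1.7e-07). S100b, which marks folliculostellate cells in rat and astrocytes in brain, was 0.027 to 5.01 FPKM (median 0.225) in pituitary and 39.8 to 66.6 FPKM (median 53.4) in hypothalamus (log2 difference −5.15 ± 0.28, adjusted p = 1.11e-11), and Sox9 was 2.98 ± 0.826 and 8.57 ± 1.46 FPKM (SD, n = 8).

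Receptors for hypothalamic signals divided evenly. Of 17 listed 15 were tested, 6 were higher in pituitary and 6 in hypothalamus, with a median log2 difference of −0.70. Over all tested genes the shares were 12.4% and 16.7%. Ghrhr, the receptor for growth hormone-releasing hormone, ran from 31.95 to 61.1 FPKM (median 46.6) and was at most 0.0207 in hypothalamus (log2 difference 5.57 ± 0.09, adjusted p = 1.66e-18). Gnrhr, the gonadotrope receptor for GnRH, ran from 10.6 to 28.5 FPKM (median 15.27) against at most 0.102 (log2 difference 4.005 ± 0.15, adjusted p = 5.28e-14). Drd2, the dopamine receptor that restrains prolactin release, ran from 41.3 to 72.1 FPKM (median 63.0) against 5.31 to 8.65 FPKM (median 6.34) (log2 difference 3.01 ± 0.12, adjusted p = 2.23e-13). These receptors did not overlap between the tissues.

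Among somatostatin receptors, Sstr3 (1.34) and Sstr5 (1.22) were higher in pituitary and Sstr2 (−2.04) in hypothalamus. The GABA-B receptor subunits Gabbr2 and Gabbr1 were higher in hypothalamus, with Gabbr2 at 0.201 to 0.695 FPKM (median 0.449) and 24.4 to 29.8 FPKM (median 28.1) (log2 difference −4.27 ± 0.07, adjusted p = 1.59e-18). Adcyap1r1, the PACAP receptor, gave 1.39 to 1.88 FPKM (median 1.58) and 47.2 to 54.8 FPKM (median 50.8) (log2 difference −4.24 ± 0.06, adjusted p = 1.08e-19). Ghsr, the ghrelin receptor, was 0.0417 to 0.37 FPKM (median 0.119) in pituitary and 1.37 to 2.76 FPKM (median 1.99) in hypothalamus. Trhr, which serves thyrotropes and lactotropes, was 0.57 to 1.48 FPKM (median 0.739) and 1.62 to 4.26 FPKM (median 2.08) and was not called (log2 difference −0.84 ± 0.16, adjusted p = 0.000109). Avpr1b, the vasopressin receptor of corticotropes, and Vipr2 did not reach 1 FPKM in either tissue. Prlr, the prolactin receptor, was not called, at 2.36 to 4.93 FPKM (median 2.68) and 1.46 to 3.45 FPKM (median 1.93) (log2 difference 0.47 ± 0.17, adjusted p = 0.0155).

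Both tissues package peptides in dense-core granules. Of the 18 genes listed for that work 4 were called higher in pituitary and 3 in hypothalamus, beside 12.4% and 16.7% of all tested genes, and 14 passed the adjusted p threshold alone, 8 higher in pituitary and 6 in hypothalamus. Chgb, of secretogranin 1, ran from 111 to 208 FPKM (median 163) against 8.38 to 10.1 FPKM (median 9.31) (log2 difference 4.03 ± 0.12, adjusted p = 1.7e-15), and Chga, of chromogranin A, from 111 to 251 FPKM (median 160.4) against 36.0 to 49.4 FPKM (median 42.6) (log2 difference 2.03 ± 0.13, adjusted p = 1.14e-10). Scg5 (1.42) and Scg2 (1.02) were called with them. On the other side stood Vgf, a neurotrophin-inducible granin, at 2.64 to 6.95 FPKM (median 4.15) and 32.1 to 74.3 FPKM (median 54.6) (log2 difference −3.19 ± 0.19, adjusted p = 4.57e-11), the vesicle priming gene Cadps (−2.43) and the carboxypeptidase gene Cpe (−1.10). The 11 others were not called at the minimum size, and their log2 differences lay between −0.9999 and 0.86.

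The pituitary libraries carried an epithelial programme. Of 20 genes for epithelial adhesion and keratins 16 were tested, 15 were higher in pituitary and none in hypothalamus (median 2.74). Epcam, an epithelial cell adhesion molecule, ran from 136 to 166 FPKM (median 151) against 0.266 to 1.62 FPKM (median 0.731) (log2 difference 6.48 ± 0.12, adjusted p = 8.77e-18). Cldn9, a tight junction claudin, ran from 58.4 to 71.1 FPKM (median 65.0) against 0.204 to 1.04 FPKM (median 0.529) (log2 difference 5.44 ± 0.10, adjusted p = 3.38e-18). Rab25 (4.72), Krt8 (4.68), Cldn3 (4.63) and Krt18 (4.32) were likewise separated in every library. In the control mammary gland, another epithelial tissue of the study, Epcam averaged 177 ± 16.7 and Cldn9 0.411 ± 0.195 FPKM (SD, n = 8).

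Genes of protein folding and export from the endoplasmic reticulum were higher in pituitary for 18 of 25 members and lower for none (median 1.65), also without library 1 and in heated libraries. Kdelr3, a receptor that returns escaped proteins to the endoplasmic reticulum, ran from 18.4 to 32.5 FPKM (median 23.6) against 0.201 to 0.524 FPKM (median 0.365) (log2 difference 4.22 ± 0.10, adjusted p = 2.19e-16). Creb3l1, a transcription factor that expands the secretory pathway, ran from 26.2 to 57.9 FPKM (median 35.2) against 1.47 to 2.98 FPKM (median 2.16) (log2 difference 3.65 ± 0.16, adjusted p = 5.33e-13). Manf (2.46), the translocon subunit Sec61b (2.56), Xbp1 (1.75) and the chaperone Hspa5 (1.44) were among those called. Hsp90b1 and Calr reached 0.92 and 0.90, under the size minimum. Rcn3, a calcium-binding protein of the same compartment that was not on the list, was among the 10 largest differences, at 181 to 263 FPKM (median 212) against 2.07 to 5.33 FPKM (median 2.91) (log2 difference 5.85 ± 0.13, adjusted p = 3.8e-17).

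All 78 ribosomal protein genes of the list passed the filter; 48 were called higher in pituitary, 43 without library 1, and none in hypothalamus (median 1.10). Together they took 7.15 ± 1.44% of summed FPKM in pituitary and 3.27 ± 0.483% in hypothalamus (SD, n = 8; exact permutation test over all arrangements of the libraries, 2-sided, p = 0.000155, the smallest it can give, and 0.000311 after adjustment over 6 library summaries). The difference was 3.88 percentage points, and 4.94 without Pomc in the sum. Rplp0, a protein of the ribosomal stalk, was 106 ± 32.7 and 23.6 ± 8.90 FPKM, and Rpl10 327 ± 21.4 and 88.0 ± 7.16 (SD, n = 8; log2 differences 2.22 ± 0.21 and 1.95 ± 0.07, adjusted p = 1.79e-08 and 1.64e-14). Many processed pseudogenes resemble these genes, so how fragments were divided among copies is uncertain.

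Some ribosomal genes had a wide range between library numbers. Rps2 was 91.7 to 106 FPKM in pituitary libraries 5, 6 and 7 and at most 1.64 in the other 5. In hypothalamus the same numbers held 57.6 to 64.0 and the rest at most 0.705, and in the control mammary gland 185 to 231 and at most 1.85. Rpl26 was high in number 1 of each tissue, with 119.6, 74.0 and 179 FPKM in pituitary, hypothalamus and mammary gland, and at most 3.65, 2.28 and 7.56 elsewhere. Rpl35a was high in number 1 and intermediate in numbers 6 and 7 of all 3 tissues. Rpl30 was lowest in number 4 and highest in number 3 of all 3. Over all tested genes, 13 spanned more than 3 log2 units in both pituitary and hypothalamus, and for 12 of them the 8 numbers correlated across the tissues at r of 0.95 or more, a description over 8 points. Of these 13 genes 6 are annotated as pseudogenes. The tissue differences of Rps2 (log2 difference 0.57 ± 1.26, adjusted p = 0.687), Rpl26 (log2 difference 0.60 ± 0.79, adjusted p = 0.493) and Rpl35a (log2 difference 0.82 ± 0.62, adjusted p = 0.232) were not called, and that of Rpl30 was (log2 difference 1.34 ± 0.57, adjusted p = 0.0397). All 4 genes were higher in pituitary in 8 of 8 same-number pairs of libraries. Fitted with a block for library number, the adjusted p was 6.63e-06 for Rps2, 0.00017 for Rpl26, 3.3e-06 for Rpl35a and 2.63e-07 for Rpl30, and the first 3 stayed under the size minimum. In the fit without the block the Rpl30 call was lost when any one of pituitary libraries 1, 2, 3, 6 and 7 or hypothalamus libraries 4, 5, 7 and 8 was left out, and without pituitary library 1 its log2 difference was 1.25 (adjusted p = 0.0671). With the block and without that library it was 1.34 (adjusted p = 1.65e-06), and the call held.

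The releasing hormones, by which hypothalamic neurons instruct the pituitary, were higher in hypothalamus. All 9 tested of 10 genes for releasing hormones and dopamine were called, with a median of −2.57. Sst, which encodes somatostatin, an inhibitor of growth hormone release, had the largest difference of any hypothalamic gene, at 262 to 324 FPKM (median 303) against 0 to 0.504 FPKM (median 0.0997) in pituitary (log2 difference −7.99 ± 0.08, adjusted p = 2.73e-20). Trh, of thyrotropin-releasing hormone, ran from 38.4 to 89.6 FPKM (median 68.3) against 0.0296 to 0.202 FPKM (median 0.122) (log2 difference −5.85 ± 0.13, adjusted p = 6.14e-17), and Ghrh, of growth hormone-releasing hormone, from 11.6 to 20.8 FPKM (median 13.7) against 0 to 0.245 FPKM (median 0) (log2 difference −3.81 ± 0.11, adjusted p = 1.52e-15). No pituitary library reached the hypothalamic range of these genes. Crh, of corticotropin-releasing hormone, was low in bulk hypothalamus, at 2.66 to 6.12 FPKM (median 2.85), and at most 0.0621 in pituitary (log2 difference −2.08 ± 0.12, adjusted p = 2.78e-11).

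Gnrh1, whose neurons are few and scattered, ran from 1.70 to 7.92 FPKM (median 2.65) in hypothalamus and 0.2 to 1.43 FPKM (median 0.638) in pituitary. Its call (log2 difference −1.19 ± 0.20, adjusted p = 3.64e-05) was lost within libraries 4 to 8 alone and in the heated libraries. Th, the rate-limiting enzyme of dopamine synthesis, ran from 10.9 to 16.2 FPKM (median 14.3) against 0.121 to 0.311 FPKM (median 0.198) (log2 difference −3.55 ± 0.07, adjusted p = 8.05e-18). The vesicular transporter Slc18a2 (−2.57), the decarboxylase Ddc (−1.92) and the dopamine transporter Slc6a3 (−1.09) were called with it. Gch1 did not reach 1 FPKM.

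Avp and Oxt were among the most abundant genes of the hypothalamus, ranking as genes 8 and 18 by mean level. Avp ran from 726 to 2276 FPKM (median 974) there and from 0 to 47.4 FPKM (median 26.0) in pituitary (log2 difference −5.89 ± 0.60, adjusted p = 5.87e-08, and −5.28 without pituitary library 1). Oxt, the hormone of milk let-down, ran from 206 to 881 FPKM (median 430.3) and 0.381 to 53.1 FPKM (median 32.3) (log2 difference −4.10 ± 0.59, adjusted p = 4.94e-06, and −3.50 without library 1). Neither gene overlapped between tissues, yet both were well above 0 in 7 of 8 pituitary libraries. All 8 tested of 10 genes in this system were higher in hypothalamus, among them Otp (−4.46), Pou3f2 (−2.64) and Sim1 (−1.31), the factors that specify magnocellular neurons, and Oxtr, the oxytocin receptor (−1.25). Avpr1b and Avpr2 did not reach 1 FPKM.

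Promoters of hypothalamic genes are printed in the same way for the largest difference (Sst), the dopamine gene Th, both posterior lobe hormones and the lateral hypothalamic peptides Pmch and Hcrt.
Sst (chr16:23890845-23890994, - strand): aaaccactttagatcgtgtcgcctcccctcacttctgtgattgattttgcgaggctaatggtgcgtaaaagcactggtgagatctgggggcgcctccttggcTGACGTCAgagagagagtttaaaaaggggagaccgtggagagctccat
Th (chr7:142899996-142900145, - strand): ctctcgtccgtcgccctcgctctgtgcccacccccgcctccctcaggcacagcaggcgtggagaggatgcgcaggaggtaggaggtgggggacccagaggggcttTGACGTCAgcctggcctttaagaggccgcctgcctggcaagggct
Avp (chr2:130582589-130582738, - strand): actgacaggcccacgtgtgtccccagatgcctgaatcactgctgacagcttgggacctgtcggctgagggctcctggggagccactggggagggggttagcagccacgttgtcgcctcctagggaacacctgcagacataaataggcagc
Oxt (chr2:130576019-130576168, + strand): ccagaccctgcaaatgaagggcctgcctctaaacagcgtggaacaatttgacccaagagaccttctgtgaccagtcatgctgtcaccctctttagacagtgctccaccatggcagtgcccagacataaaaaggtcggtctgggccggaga
Pmch (chr10:88090922-88091071, + strand): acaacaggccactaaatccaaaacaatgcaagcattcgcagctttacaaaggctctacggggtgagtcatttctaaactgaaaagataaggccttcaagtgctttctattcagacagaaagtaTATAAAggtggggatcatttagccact
Hcrt (chr11:100762932-100763081, - strand): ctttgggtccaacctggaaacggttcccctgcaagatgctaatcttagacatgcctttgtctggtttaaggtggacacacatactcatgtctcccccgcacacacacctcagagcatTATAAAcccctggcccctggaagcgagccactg

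Pmch and Hcrt held TATAAA near the start, like the pituitary hormones. Sst and Th instead held TGACGTCA, the cyclic AMP response element, 48 and 45 bases before the start at its first base, where 1.77% of all genes held it anywhere in the 250 bases. Avp held none of the 6 motifs in its 250 bases. Oxt held none in the printed window and 1 copy of CAAGGTCA on the other strand further upstream, from 166 to 159 bases before the start.

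Feeding and other neuropeptide genes were higher in hypothalamus for 16 of 22 tested and higher in pituitary for 1 (median −2.30). Nms, 1 of the 16, was listed at 0 in every pituitary library. With the FPKM of 3 fragments in place of 0 its log2 difference was −0.95, under the size minimum. Pmch, of melanin-concentrating hormone, ran from 93.0 to 289 FPKM (median 172) against 0 to 0.0576 FPKM (median 0.0503) (log2 difference −7.25 ± 0.21, adjusted p = 1.74e-15), and Hcrt, of the orexins, from 81.2 to 218 FPKM (median 169.5) against 0 to 0.309 FPKM (median 0.105) (log2 difference −7.03 ± 0.16, adjusted p = 9.53e-17). Both promote feeding from the lateral hypothalamus, and the orexins also promote arousal. On Pmch, 58.1% of exon bases lie opposite an exon of another gene. In Npy, which arcuate neurons use to drive feeding, the hypothalamus ran from 51.7 to 85.9 FPKM (median 72.8) and the pituitary from 0.152 to 2.33 FPKM (median 0.556) (log2 difference −5.36 ± 0.19, adjusted p = 3.33e-14), and its partner Agrp gave 8.22 to 19.5 FPKM (median 9.59) and 0.635 to 2.10 FPKM (median 1.15) (log2 difference −2.42 ± 0.17, adjusted p = 5.29e-10). Their opponent Cartpt ran from 55.6 to 83.1 FPKM (median 68.2) against 1.86 to 8.92 FPKM (median 3.21).

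Adcyap1 (−5.13), Tac2 (−4.37), Tac1 (−4.30) and Nts (−3.93) were near 0 in pituitary. Several peptide genes were expressed in both tissues: Gal, of galanin, was not called, at 32.8 to 89.2 FPKM (median 62.9) in pituitary and 47.99 to 75.8 FPKM (median 59.1) in hypothalamus (log2 difference 0.12 ± 0.16, adjusted p = 0.493), nor was Penk, of enkephalin, at 23.4 to 49.4 FPKM (median 34.3) and 43.9 to 56.3 FPKM (median 53.6) (log2 difference −0.51 ± 0.12, adjusted p = 0.000877). Nucb2, of the nesfatin precursor, went the other way, at 50.8 to 73.7 FPKM (median 58.1) in pituitary and 8.99 to 12.2 FPKM (median 9.84) in hypothalamus (log2 difference 2.50 ± 0.10, adjusted p = 1.13e-13), and averaged 329 ± 45.4 in the mammary gland (SD, n = 8). Summed over the measured peptide genes of this list, the releasing hormones, Avp and Oxt, the share of FPKM was 0.115 ± 0.0172% in pituitary and 1.32 ± 0.32% in hypothalamus (SD, n = 8; exact permutation p = 0.000155, adjusted 0.000311). The 7 pituitary hormone genes took 14.0 ± 6.53% in pituitary, 2.16% in library 1 and 8.41 to 20.8% in the others, and 0.0259 ± 0.00547% in hypothalamus (exact permutation p = 0.000155, adjusted 0.000311). Both sums hold genes chosen because they are known for 1 of the tissues, so the p values of these shares add no support.

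Receptors for hormones and neuropeptides in hypothalamus were higher there for 16 of 23 tested, and none was higher in pituitary (median −1.30). Ntsr2, a neurotensin receptor, had the widest difference, at 41.6 to 67.8 FPKM (median 55.3) against 0.289 to 1.28 FPKM (median 0.553) (log2 difference −5.05 ± 0.12, adjusted p = 1.49e-16). Npy2r gave 5.85 to 13.4 FPKM (median 8.24) against 0 to 0.0649 FPKM (median 0.0123) (log2 difference −3.15 ± 0.12, adjusted p = 9.19e-14). Mc4r, the melanocortin receptor that restrains feeding, was 1.04 to 1.71 FPKM (median 1.13) and at most 0.0149 in pituitary. Mc3r (0.49), Insr (0.32) and Kiss1r (−0.54) were not called, and Lepr and Oprm1 did not reach 1 FPKM.

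Of 34 transcription factors that pattern the hypothalamus, 30 were tested, 21 were higher in hypothalamus and 1 in pituitary (median −1.78). Otp ran from 17.9 to 36.1 FPKM (median 22.7) against 0 to 0.381 FPKM (median 0.0858) (log2 difference −4.46 ± 0.14, adjusted p = 6.76e-15), and Fezf1, a factor of the ventromedial nucleus, from 11.3 to 17.1 FPKM (median 12.6) against 0.017 to 0.288 FPKM (median 0.0742) (log2 difference −3.63 ± 0.08, adjusted p = 2.92e-17). Hmx3 and Hmx2 were listed at 0 in every pituitary library. With the FPKM of 3 fragments in place of 0, the log2 difference was −2.55 for Hmx3 and −0.96 for Hmx2. The latter is under the size minimum, so the Hmx2 call rests on the values of 0. The exception was Six6, needed in mice for both structures, at 24.6 to 33.7 FPKM (median 31.5) in pituitary and 1.49 to 3.001 FPKM (median 1.92) in hypothalamus (log2 difference 3.44 ± 0.10, adjusted p = 1.99e-15). Of 15 markers of other brain regions 9 did not reach 1 FPKM. Of the 6 tested 1 was called higher in hypothalamus, beside 16.7% of all tested genes, and none in pituitary. It was Ppp1r1b, abundant in striatum (8.98 to 17.8 FPKM (median 13.1) in hypothalamus, log2 difference −2.71 ± 0.20, adjusted p = 5.64e-10).

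**Figure D4:**
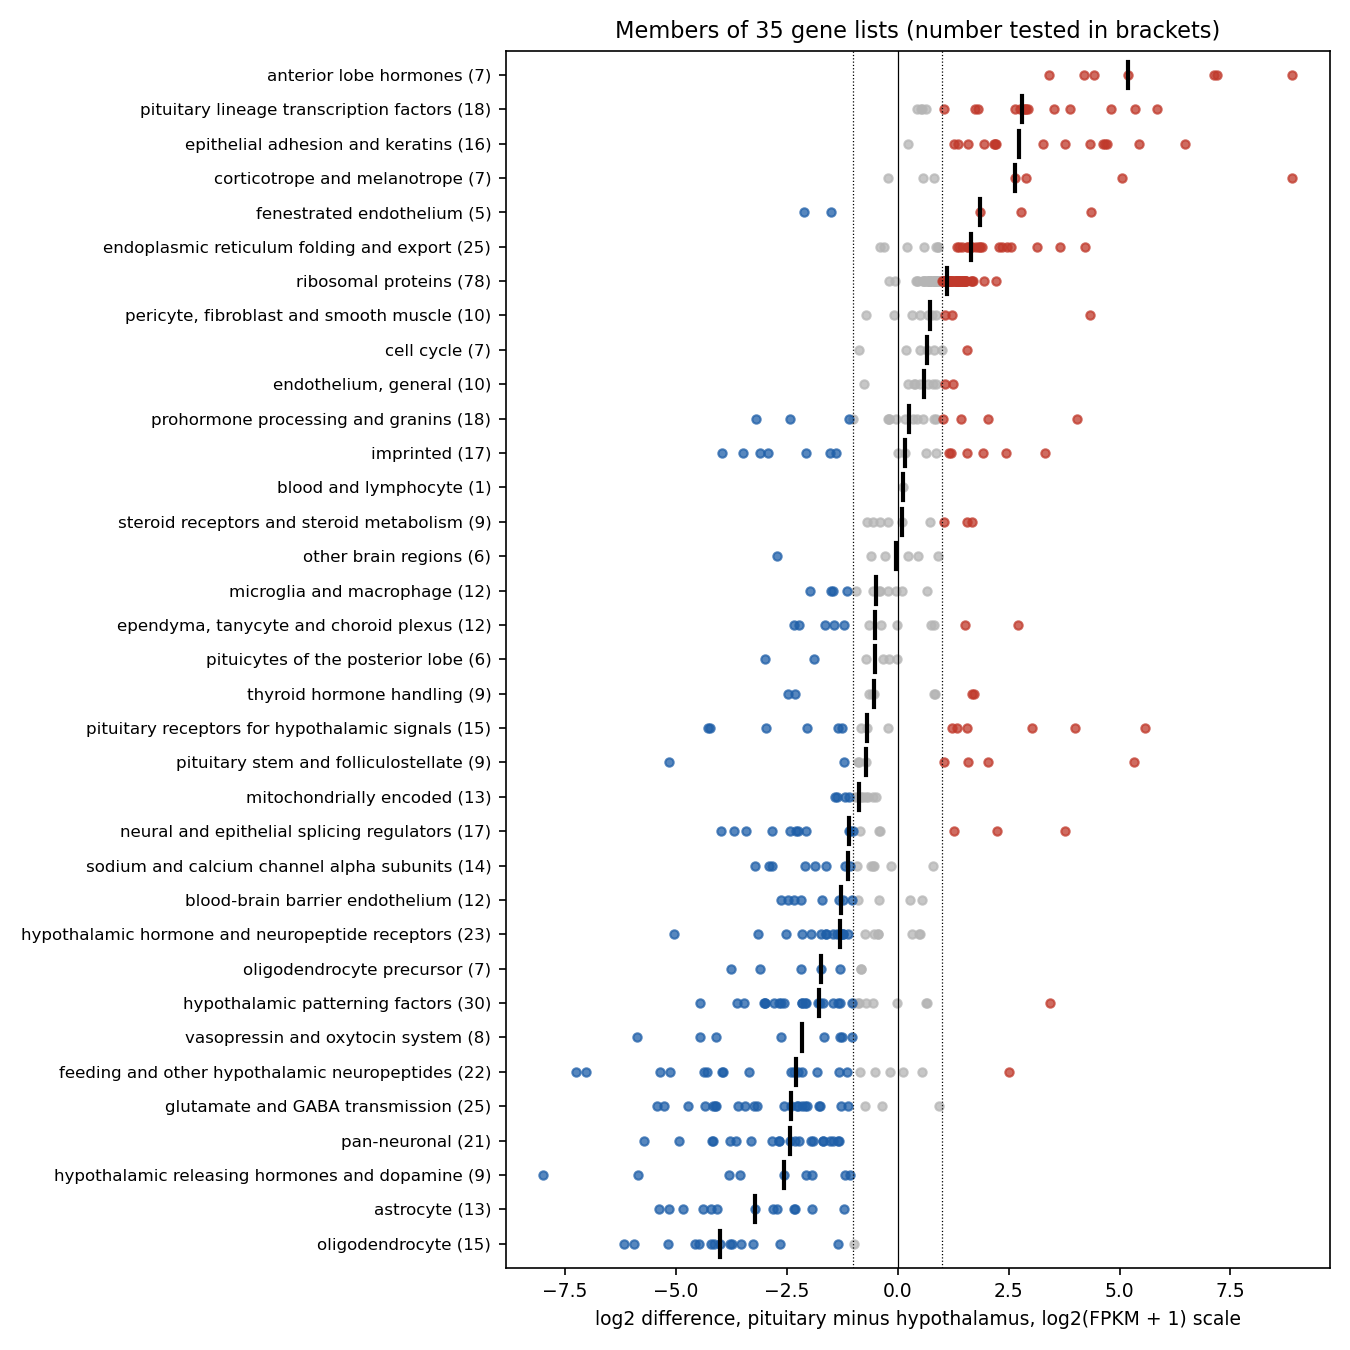
Log2 difference, pituitary minus hypothalamus, of each tested member of 35 gene lists (points; red called higher in pituitary, blue called higher in hypothalamus, grey not called), with black bars at the list medians and dotted lines at 1 and −1. Lists are sorted by median, from 5.19 for hormones of the anterior lobe to −4.02 for oligodendrocytes.

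All 21 pan-neuronal genes were higher in hypothalamus (median −2.44), and none was absent from pituitary. Gap43, of growing and plastic axons, had the widest difference at 96.2 to 118 FPKM (median 105) against 0.623 to 1.61 FPKM (median 0.91) (log2 difference −5.73 ± 0.09, adjusted p = 1.23e-18), followed by Stmn2, a regulator of microtubules (log2 difference −4.93 ± 0.13, adjusted p = 5.35e-16). Genes of regulated exocytosis were closer: the SNARE gene Snap25 was 63.1 to 103 FPKM (median 75.6) in hypothalamus and 20.5 to 24.6 FPKM (median 23.0) in pituitary (log2 difference −1.70 ± 0.11, adjusted p = 7.6e-11), and the vesicle gene Syp 80.2 to 97.7 FPKM (median 89.1) and 25.9 to 34.6 FPKM (median 31.1) (log2 difference −1.46 ± 0.07, adjusted p = 1.1e-12). Neurofilament, tubulin and synapsin genes lay between these.

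Of the 10 largest hypothalamic differences, Vsnl1, Calb2 and Camkv are genes of neurons. Vsnl1, a neuronal calcium sensor, ran from 139.9 to 201 FPKM (median 167) against 0.0709 to 3.11 FPKM (median 0.161) (log2 difference −6.88 ± 0.22, adjusted p = 6.8e-15). In pituitary library 8 this gene, together with Calb2 (1.97) and the astrocyte gene S100b (5.01), stood above the other 7 libraries. Calb2, a calcium-binding protein of interneurons, had a pituitary median of 0.0657 and ran from 79.0 to 97.3 FPKM (median 89.1) in hypothalamus, and Camkv, a kinase-like protein of synapses, ran from 64.2 to 92.7 FPKM (median 76.9) against at most 0.103 in pituitary (log2 difference −6.16 ± 0.07, adjusted p = 5.02e-20).

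Genes of transmission by glutamate and GABA were higher in hypothalamus for 22 of 25 tested. Slc32a1, which loads GABA and glycine into vesicles, ran from 43.5 to 76.1 FPKM (median 56.6) against 0.143 to 1.30 FPKM (median 0.241) (log2 difference −5.43 ± 0.15, adjusted p = 6.37e-16). The GABA synthesis genes Gad1 (−4.73) and Gad2 (−4.16) were called, and Gad2 kept 1.07 to 1.86 FPKM in pituitary. The glutamate transporter of hypothalamic neurons, Slc17a6, ran from 27.2 to 56.1 FPKM (median 39.4) against 3.54 to 13.8 FPKM (median 5.21) (log2 difference −2.41 ± 0.22, adjusted p = 1.9e-08), whereas its cortical relative Slc17a7 was not called (log2 difference 0.93 ± 0.21, adjusted p = 0.000521) and passed in favour of pituitary without library 1 (1.04, adjusted p = 0.000118).

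Of 14 sodium and calcium channel genes, 8 were higher in hypothalamus (7 without pituitary library 1) and none in pituitary. Scn1a ran from 6.71 to 11.7 FPKM (median 8.99) against 0.00735 to 0.174 FPKM (median 0.0219) (log2 difference −3.23 ± 0.10, adjusted p = 6.94e-15) and Scn2a from 11.6 to 22.3 FPKM (median 13.0) against 0.483 to 1.43 FPKM (median 1.22) (log2 difference −2.91 ± 0.16, adjusted p = 1.19e-11). Cacna1d, an L-type calcium channel gene used by endocrine cells, was the member with the most positive difference, at 5.19 to 6.505 FPKM (median 6.00) in pituitary and 2.83 to 3.54 FPKM (median 3.26) in hypothalamus, under the size minimum (log2 difference 0.80 ± 0.05, adjusted p = 3.35e-11).

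Glia made up the lists with the lowest medians. All 13 astrocyte genes (median −3.22) and 14 of 15 oligodendrocyte genes (median −4.02) were higher in hypothalamus. Gfap, the intermediate filament of astrocytes, ran from 67.0 to 112 FPKM (median 80.2) against 0.0388 to 2.07 FPKM (median 0.979) (log2 difference −5.38 ± 0.17, adjusted p = 6.28e-15). Mobp, a protein of central myelin, ran from 61.5 to 108 FPKM (median 74.0) against 0.0598 to 0.791 FPKM (median 0.224) (log2 difference −5.94 ± 0.13, adjusted p = 3.91e-17). Mbp kept 3.03 to 4.90 FPKM in pituitary, where Mog and Olig2, which mark oligodendrocytes more strictly, were at most 0.258 and 0.21. Aspa, the member not called, had a log2 difference of −0.99, and −1.01 without pituitary library 1.

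Oligodendrocyte precursor genes were called higher in hypothalamus for 5 of 7, led by Cspg5 (log2 difference −3.77 ± 0.11, adjusted p = 2.72e-15) and Gpr17 (log2 difference −3.10 ± 0.07, adjusted p = 2.84e-17). Agt, the angiotensinogen gene of astrocytes, was on no list but among the 10 largest differences, at 97.8 to 135 FPKM (median 112) against 0.286 to 1.28 FPKM (median 0.436) (log2 difference −6.20 ± 0.10, adjusted p = 2.05e-18), and Itih3, of a hyaluronan-binding complex, was there too, at 63.5 to 98.8 FPKM (median 76.5) against 0 to 0.403 FPKM (median 0.0157) (log2 difference −6.14 ± 0.09, adjusted p = 7.32e-19). Ptgds, a prostaglandin D synthase of meninges and oligodendrocytes, was among the genes that varied most between hypothalamus libraries, from 37.7 to 528 FPKM (median 125), and was 2.76 to 12.7 FPKM (median 7.02) in pituitary (log2 difference −4.18 ± 0.41, adjusted p = 4.01e-08).

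Microglial genes were closer between the tissues than those of other glia. Of 16 listed 12 were tested, 4 were higher in hypothalamus and none in pituitary, beside 16.7% and 12.4% of all tested genes. P2ry12 and Tmem119, which set microglia apart from other macrophages, had log2 differences of −1.98 ± 0.14 and −1.502 ± 0.06 (adjusted p = 2.67e-10 and 5.3e-14), while the lysosomal macrophage gene Cd68 overlapped, at 1.40 to 3.35 FPKM (median 2.82) and 1.61 to 3.14 FPKM (median 2.41) (log2 difference 0.10 ± 0.12, adjusted p = 0.442).

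Of 10 genes of endothelium in general 2 were higher in pituitary, beside 12.4% of all tested genes, and 1 in the heated libraries. The 2 called in control libraries were the VEGF receptor gene Kdr (log2 difference 1.24 ± 0.15, adjusted p = 9.57e-07) and Tie1 (log2 difference 1.07 ± 0.11, adjusted p = 5.64e-08), whose call was lost in the heated libraries. Genes of the blood-brain barrier were higher in hypothalamus for 8 of 12 tested and in pituitary for none. Cldn5, the barrier's tight junction claudin, ran from 7.35 to 15.2 FPKM (median 12.4) against 0.518 to 2.52 FPKM (median 0.873) (log2 difference −2.63 ± 0.18, adjusted p = 1.95e-10), and Slco1c1, which carries thyroxine across it, from 2.70 to 7.95 FPKM (median 4.65) against 0 to 0.12 FPKM (median 0.00862) (log2 difference −2.47 ± 0.15, adjusted p = 7.9e-11). Plvap, which forms the diaphragms of leaky fenestrated capillaries such as those of the pituitary, went the other way, at 37.9 to 61.5 FPKM (median 43.7) in pituitary and 4.24 to 9.24 FPKM (median 6.88) in hypothalamus (log2 difference 2.78 ± 0.13, adjusted p = 1.77e-12). Of the 5 fenestrated endothelium genes 3 were higher in pituitary (Esm1, Plvap and Igfbp3) and 2 in hypothalamus (Nrp2 and Ehd3, −2.11 and −1.4996).

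Fibroblast and mural cell genes were called higher in pituitary for 3 of 10 tested, beside 12.4% of all tested genes. Col1a2, of type I collagen, ran from 27.3 to 49.1 FPKM (median 33.8) against 0.526 to 1.57 FPKM (median 0.718) (log2 difference 4.32 ± 0.12, adjusted p = 1.28e-15), while its partner chain Col1a1 was not called, at 1.11 to 3.06 FPKM (median 2.01) and 0.761 to 2.57 FPKM (median 1.001) (log2 difference 0.51 ± 0.16, adjusted p = 0.00721). Kcnj8, of pericytes, had a log2 difference of 1.22 ± 0.12 (adjusted p = 2.77e-08), lost in the heated libraries. Among genes of ependyma, tanycytes and choroid plexus, 5 of 12 were higher in hypothalamus, led by the cilia genes Tmem212 (log2 difference −2.34 ± 0.15, adjusted p = 8.41e-11) and Ccdc153 (log2 difference −2.23 ± 0.11, adjusted p = 2.2e-12), and 2 in pituitary, Folr1 (log2 difference 2.71 ± 0.08, adjusted p = 1.24e-15) and Kl (log2 difference 1.51 ± 0.10, adjusted p = 1.64e-10). Of all tested genes 16.7% were called higher in hypothalamus and 12.4% in pituitary. Ttr, by far the main product of choroid plexus, was at most 2.81 FPKM in hypothalamus. Of 12 blood and lymphocyte genes 11 did not reach 1 FPKM in either tissue, the 4 haemoglobin genes included, and Alas2 did not differ beyond its spread (log2 difference 0.11 ± 0.37, adjusted p = 0.796).

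Genes of RNA-binding proteins that set splicing patterns mostly differed between the tissues. Esrp1, an epithelial splicing factor, ran from 10.6 to 17.5 FPKM (median 12.7) in pituitary and was at most 0.072 in hypothalamus (log2 difference 3.77 ± 0.09, adjusted p = 2.56e-16). Ptbp1, which represses neuronal exons in other cells, ran from 24.9 to 29.2 FPKM (median 27.8) against 4.04 to 6.26 FPKM (median 5.61) (log2 difference 2.24 ± 0.07, adjusted p = 9.12e-15). The neuronal factors Elavl3, at 23.7 to 31.1 FPKM (median 26.6) against 0.327 to 0.983 FPKM (median 0.744) (log2 difference −3.99 ± 0.07, adjusted p = 6.34e-18), and Rbfox1, at 16.8 to 27.2 FPKM (median 20.4) against 0.503 to 0.935 FPKM (median 0.595) (log2 difference −3.68 ± 0.10, adjusted p = 1.11e-15), led the 11 of 17 called higher in hypothalamus. Srrm4, a neuronal microexon factor, was not called, at 2.22 to 5.48 FPKM (median 3.20) in pituitary and 4.23 to 5.99 FPKM (median 4.88) in hypothalamus.

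Imprinted genes, expressed from 1 parental copy, were split. Of 17 tested 6 were higher in pituitary and 7 in hypothalamus, beside 12.4% and 16.7% of all tested genes. Mest ran from 54.5 to 86.8 FPKM (median 68.3) against 4.24 to 8.54 FPKM (median 5.94) (log2 difference 3.33 ± 0.12, adjusted p = 5.6e-14), and the zinc finger gene Plagl1 from 27.3 to 37.2 FPKM (median 29.7) against 4.54 to 6.32 FPKM (median 5.00) (log2 difference 2.45 ± 0.08, adjusted p = 6.33e-15). Nnat reached 651 to 1121 FPKM (median 872) in pituitary and 349.8 to 499.8 FPKM (median 397) in hypothalamus (1.163). On the other side stood 3 genes of the Prader-Willi region, Magel2, at 10.99 to 20.3 FPKM (median 17.4) against 0 to 0.0432 FPKM (median 0.00838) (log2 difference −3.96 ± 0.12, adjusted p = 2.35e-15), Ndn, at 103 to 140.4 FPKM (median 123) against 5.47 to 11.6 FPKM (median 10.4) (log2 difference −3.49 ± 0.13, adjusted p = 3.49e-14), and Snrpn (−3.10).

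Of 9 genes of thyroid hormone handling tested 2 were higher in pituitary and 2 in hypothalamus, beside 12.4% and 16.7% of all tested genes. Thrb, the thyroid hormone receptor gene used in feedback on TSH, was 8.46 to 17.1 FPKM (median 10.9) in pituitary and 2.29 to 4.01 FPKM (median 2.78) in hypothalamus (log2 difference 1.67 ± 0.14, adjusted p = 7.27e-09). Thra, its relative, was 11.8 to 16.3 FPKM (median 12.3) and 60.3 to 83.5 FPKM (median 74.5) (log2 difference −2.32 ± 0.08, adjusted p = 2.19e-14). Dio2, which activates thyroxine, was 6.16 to 13.5 FPKM (median 7.22) and 1.46 to 2.62 FPKM (median 2.08) (log2 difference 1.72 ± 0.17, adjusted p = 3.06e-08). Of 9 steroid genes tested 3 were higher in pituitary, beside 12.4% of all tested genes. They were Hsd11b1, which regenerates corticosterone (log2 difference 1.67 ± 0.09, adjusted p = 7.59e-12), the oestrogen receptor gene Esr1 (log2 difference 1.55 ± 0.13, adjusted p = 4.93e-09) and Fkbp5 (1.05, not called without library 1). The glucocorticoid receptor gene Nr3c1 was not called (log2 difference −0.22 ± 0.14, adjusted p = 0.157). Most cell cycle genes were under the filter, 11 of 18. Of the 7 tested 1 was called higher in pituitary, beside 12.4% of all tested genes, and none in hypothalamus. It was Mcm2, of the replicative helicase (log2 difference 1.56 ± 0.06, adjusted p = 1.92e-13).

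Mitochondrially encoded genes took 4.42 ± 0.826% of summed FPKM in pituitary and 8.27 ± 2.27% in hypothalamus (SD, n = 8; exact permutation p = 0.000311, adjusted 0.000466). Of 13 such genes 4 were called higher in hypothalamus and none in pituitary, beside 16.7% and 12.4% of all tested genes. mt-Co1, a subunit of cytochrome oxidase and the most abundant gene of hypothalamus, ran from 3815 to 6982 FPKM (median 5100.0) against 2302 to 2940.0 FPKM (median 2634), with a log2 difference of −0.95 ± 0.13 (adjusted p = 2.94e-06) that stayed under the size minimum with all libraries and passed it without hypothalamus library 6 or 8 (−1.03 and −1.004). mt-Nd2 (log2 difference −1.37 ± 0.23, adjusted p = 3.55e-05) and mt-Nd1 (log2 difference −1.18 ± 0.18, adjusted p = 9.53e-06), of complex I, were called, mt-Nd4 (log2 difference −0.78 ± 0.20, adjusted p = 0.00172) and mt-Cytb (log2 difference −0.48 ± 0.18, adjusted p = 0.0228) were not. mt-Nd4l was called with overlapping groups (log2 difference −1.42 ± 0.31, adjusted p = 0.000393). Within libraries numbered 1 to 3 mt-Co1 was 6392 to 6982 FPKM in hypothalamus, above all of numbers 4 to 8. The difference in the mitochondrial share, pituitary minus hypothalamus, was −5.71 percentage points in libraries 1 to 3 (exact permutation p = 0.1, the smallest possible with 3 a side) and −2.72 in libraries 4 to 8 (exact permutation p = 0.00794). Over all libraries it was −3.84, and −3.19 without Pomc in the sum.

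The 10 most abundant genes of each library held 18.96 ± 5.79% of summed FPKM in pituitary and 10.0 ± 2.53% in hypothalamus (SD, n = 8; exact permutation p = 0.00186, adjusted 0.00224). Pituitary library 1, poor in Pomc, had 8.54%. The number of genes at 1 FPKM or more was 14111 ± 294 in pituitary and 14074 ± 239 in hypothalamus (SD, n = 8; exact permutation p = 0.787). The difference of 37.1 genes ranged from −6.25 to 118.5 when single libraries were left out. At a threshold of 2 FPKM it was −243, more genes in hypothalamus (exact permutation p = 0.000155). Within libraries 4 to 8 alone the hormone, peptide, mitochondrial and ribosomal shares differed by 16.5, −1.25, −2.72 and 3.30 percentage points and the top-10 share by 12.6 (exact permutation p = 0.00794 each, the smallest possible with 5 a side).

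By contrast, 954 genes had a 95% interval of the log2 difference within −0.25 to 0.25. The 5 most abundant were Mrfap1, at 152 to 186 FPKM (median 159) in pituitary and 151 to 182 FPKM (median 169.6) in hypothalamus (0.03 ± 0.06), the RNA-binding protein genes Hnrnpa1 (−0.05 ± 0.09) and Hnrnpa0 (0.11 ± 0.07), Brk1, of the actin-regulating WAVE complex (−0.12 ± 0.05), and Capns1, the small calpain subunit (0.08 ± 0.06). Their libraries overlapped between the tissues. The near-equal place was lost in 17 of the alternatives for Hnrnpa0, 12 for Hnrnpa1, 6 for Brk1 and 4 for Capns1, and for the first 3 these included leaving out single libraries. Rplp1, among the most abundant genes of pituitary, was 1061 ± 64.6 and 686 ± 53.5 FPKM (SD, n = 8) and stayed under the size minimum (log2 difference 0.70 ± 0.07, adjusted p = 3.64e-08).

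The comparison was repeated in the 8 heated pituitary and 8 heated hypothalamus libraries. It gave 1880 genes (11.7%) higher in pituitary and 2670 (16.6%) higher in hypothalamus among the same 16094 genes. Of the 1993 control calls for pituitary 1651 (82.8%) were called again in the same direction, which is 87.8% of the heated calls. For hypothalamus it was 2488 of 2695 (92.3%), or 93.2% of the heated calls. No gene was called in opposite directions, and the sign was kept by 1992 and 2695 genes. The dams differ but the tissues and procedures were shared, so these counts are no test of the control calls.

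Of the 121 genes named by rule, 2 differed in their tissue contrast between control and heated dams (limma interaction, adjusted over all genes). Prl had a log2 difference of 4.43 in control and 2.52 in heated libraries, where its pituitary values were 1.02 to 17.6 FPKM (median 4.65) (interaction −1.91, adjusted p = 0.0356). Dio2 went from 1.72 to 0.30 (interaction −1.42, adjusted p = 0.00957), and its call was lost there. The interaction of the other hormone genes did not pass: Cga from 7.19 to 6.23, Lhb from 7.13 to 6.08 and Pomc from 8.89 to 9.81.

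**Figure D5:**
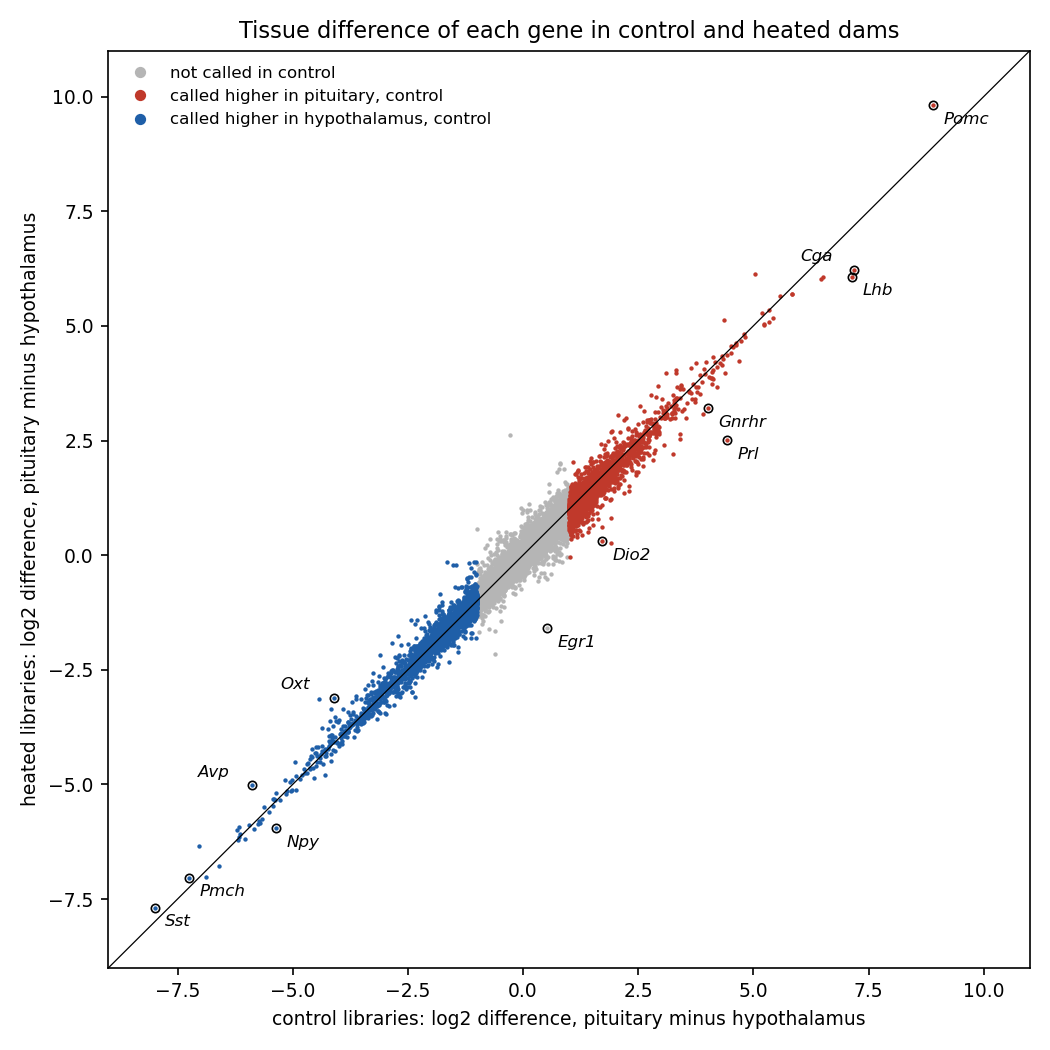
Log2 difference, pituitary minus hypothalamus, of each tested gene in the 16 control libraries (x axis) and the 16 heated libraries (y axis), with the line of equal differences. Red and blue points are genes called in the control libraries; Prl, Dio2 and Egr1 lie below the line.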

How the data were processed

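RNA of snap-frozen tissue was extracted with Trizol, per the labels' protocols. The submitters' processing notes name HISAT2 2.0.5, featureCounts 1.5.0-p3, DESeq2 1.16.1 and mm9. The deposited values are FPKM, computed by the authors for each library. The sources used here do not give the strand setting or which fragments the FPKM denominator counts. Nor do they give the treatment of multi-mapping reads, which bears on genes with near-identical copies.

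The 16 control libraries were grouped by the labels' tissue and temperature, and no 2 were identical. FPKM was scaled by median ratios, log2(FPKM + 1) was fitted with limma 3.58.1 (R 4.3.3; mean-variance trend, 8 against 8), and p values were adjusted over all 16094 genes by Benjamini-Hochberg. Printed levels are deposited FPKM. Library shares were compared by exact permutation tests, without pairing of same-numbered libraries unless stated. Other steps used Python 3.11.15 (scipy 1.17.1, numpy 2.4.6, pandas 2.3.3), and figures matplotlib 3.10.9. With annotation exon lengths, 95.1 to 96.7% of values under 50 fragments were whole within 0.02, which gave the depths. The fit was also run on simulated data with independent noise for each gene and library, which lack the shared deviations of same-numbered libraries.

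Named genes were the 10 largest differences each way, list leaders, the most abundant, most variable and near-equal genes, and a set of hormones, peptides and receptors; some of these are not reported here. The members and lists were chosen with earlier results of these data known. Of 576 listed symbols 500 passed the filter. Same-numbered libraries deviated together from their tissue means (r 0.392 to 0.593 in all 8 pairs, own number best in 8 of 8). The numbers therefore appear to pair the libraries. Other pairs within a set (numbers 1 to 3 or 4 to 8) gave r of 0.149 to 0.497, and pairs across sets −0.457 to −0.280. With same-numbered libraries paired, the exact permutation p was 0.00781 for the hormone, peptide, mitochondrial and ribosomal shares and 0.0234 for the top-10 share. The labels call the libraries biological replicates without naming animals, so p values measure the spread between these libraries. Alternatives covered scaling, pseudocount, filter, weights, pairing, library sets and each library left out.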

Additional observations from a re-analysis of the deposited data

Results flagged for a closer look

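The highest or lowest of 8 libraries was tested for its distance from the rest (Dixon's 95% critical value 0.526) in 191 groups of values. Nearly all were of single genes, and 18 stood apart. Chance alone gives about 1 in 20 where genes are chosen without regard to their spread. Some of these genes were chosen for their spread or their likeness to Pomc in these same libraries. The count is therefore not set against that rate. Pituitary library 1 held 9 of them. It was lowest for Pomc (2173 FPKM), Oacyl (0.582), Col25a1 (0.108), Avp (0), Esm1 (1.47), Oxt (0.381), Pax7 (0.0629) and Pcsk2 (2.11), genes of melanotropes, posterior lobe axons, pituicytes and vessels, and highest for Rpl26 (119.6). Whether its dissection differed was not tested.

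Elsewhere in pituitary, library 4 was highest for Rplp1 (1211 FPKM) and lowest for Rpl30 (5.54). In hypothalamus, library 5 was highest for Lhb (6.02) and library 8 highest for Rcn3 (5.33) and lowest for Gabbr2 (24.4). Hypothalamus library 2 was highest for Plagl1 (6.32) and Gnrh1 (7.92), and library 1 was lowest for Egr1 (2.69) and highest for Rpl26 (74.0), as in pituitary.

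The tissue contrast differed between control and heated dams for 2 of 121 named genes by limma's interaction term, adjusted over all genes. It was lower under heat by −1.91 for Prl (adjusted p = 0.0356) and by −1.42 for Dio2 (adjusted p = 0.00957).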

How the results depend on the processing

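Of 121 named genes, 101 kept their call, or their place among near-equal genes, under every alternative run, and 20 did not under at least 1. With the replicate block the counts were 1996 and 2695 and no named call changed. Genes higher in pituitary numbered 3120 with a pseudocount of 0.1, 1147 with a filter of 5 FPKM (fewer genes tested) and 1244 by limma's test against the minimum difference. Genes past the p threshold alone numbered 19829 without a filter (more genes tested) and 7023 with a filter of 5 FPKM. Run on recovered fragments, limma-voom, added after the data were seen, called 2947 and 3208. For library shares in libraries 1 to 3 alone the smallest exact permutation p is 0.1. The differences in share there, pituitary minus hypothalamus, were 9.94 percentage points for hormones, −1.13 for peptides, −5.71 for mitochondrial genes and 4.85 for ribosomal proteins (p = 0.1 each), and 2.76 for the top 10 genes (p = 0.7), by exact permutation. The difference in genes at 1 FPKM or more, 37.1, ranged from −6.25 to 118.5 when single libraries were left out and was −243 at a threshold of 2 FPKM (exact permutation p = 0.000155); the cause was not tested. mt-Cytb moved to 0.096 under quantile normalization. Egr1 moved to −0.66 in libraries 4 to 8 alone and −1.60 in heated libraries. Levels near 0.1 FPKM rest on few fragments, and differences between them were not detectable at this depth.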

Other observations

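Haemoglobin genes were listed at or near 0 in both tissues. Hbb-bs averaged 0.209 FPKM in pituitary and 0.105 in hypothalamus, Hbb-bt 0.0878 and 0.0996, and Hba-a2 was listed at 0 in all 16 libraries. How the counting treated near-identical copies is not given in the sources used here, so these values are not read as absence. Alas2, the haem synthesis enzyme of red cell precursors, had a mean of 4.82 ± 4.88 and 4.19 ± 2.57 FPKM (SD, n = 8).

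Proliferation genes were low in both tissues, with Mki67 averaging 0.569 and 0.0849 FPKM and Top2a 0.579 and 0.0935 in pituitary and hypothalamus. The leptin receptor gene Lepr averaged 0.202 and 0.761, and Avpr1b, of corticotropes, 0.538 in pituitary. In the same pituitary libraries the imprinted gene Nnat averaged 883 ± 176 and Cpe, the carboxypeptidase of granules, 213 ± 31.0 FPKM (SD, n = 8).

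The heated pituitary libraries held 6616 to 99932 FPKM (median 46549.6) of Pomc and 3.10 to 31.8 FPKM (median 14.0) of Gh.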
